A study of Mus musculus with 20 samples.

Results

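The regions described here carried both histone acetylation marks of the study but not H3K4me1. They are intervals of the H3K27ac consensus table shorter than 8000 bases that a peak of each of the 8 H3K27ac libraries overlapped, that the H3K9ac consensus also overlapped, and that no H3K4me1 consensus interval touched. Of 65776 H3K27ac consensus intervals, 18281 were called in all 8 libraries and 1864 met the whole rule. The regions were chosen by the measured peak calls of the 3 marks, so the presence of acetylation and the absence of H3K4me1 are how they were defined and not results. The same rule with H3K4me1 present gave 11683 regions, and 4104 intervals called in all 8 libraries had no H3K9ac; both serve as comparison.

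All animals were 9-week-old male C57BL/6 mice fasted for 24 h, from 3 pm to 3 pm, and kept on 14 h of light and 10 h of dark with chow. The 4 groups were wild type (WT), a liver knockout of Cpt2 (Cpt2 L-/-), a knockout of Ppara (Ppara -/-) and the double knockout of both (DKO, Cpt2 L-/-;Ppara -/-). H3K27ac and H3K4me1 were immunoprecipitated from 2 flash-frozen livers of each group, and H3K9ac from 1 WT and 1 Cpt2 L-/- liver. Cpt2 encodes a mitochondrial carnitine palmitoyltransferase that long-chain fatty acids need for oxidation, and Ppara a nuclear receptor for fatty acids that directs the fasting response of hepatocytes. The labels name neither the Cre driver of the Cpt2 allele nor the animal of each library. The p-values below therefore rest on the spread between the 2 libraries of a group, pooled over the 4 groups.

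H3K27ac and H3K9ac are placed on nucleosomes by acetyltransferases and mark active promoters and enhancers. H3K4me1 is deposited by the MLL3 and MLL4 complexes at enhancers and in the flanks of promoters, and it is typically depleted from the nucleosomes beside an active start, where H3K4me3 prevails. Regions with acetylation but no H3K4me1 are for this reason often promoters, many of them CpG-rich starts of genes that all cells use. H3K4me3 was not measured in the libraries used here.

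Promoter windows of 10 of the regions show what their starts look like at the level of sequence. They comprise 5 regions of the highest mean H3K27ac enrichment (Arrdc3, N6amt1, Ube2d3, Jarid2, Msantd2), the regions with a start that changed most after loss of Ppara (Tbx3os1, Morf4l2) or of Cpt2 (Ghr, 2610001J05Rik), and Fign, which held none of the motifs searched. Each window is from RefSeq on GRCm38.p6 (mm10), 300 bases long, read 5′ to 3′ on the strand of the gene, with 250 bases before and 50 bases from the start on. Capitals mark matches, on either strand, to any of 12 letter strings searched. TATAAA stands for the TATA box and CCAAT for the box bound by NFY. GGGCGG is bound by SP and KLF proteins, whereas CCGGAAG belongs to the ETS family. The NRF1 core was searched as GCATGCGC and the YY1 element as AAGATGGC. For CREB the string was TGACGTCA, for the E-box CACGTG, and for CEBP proteins TTGCGCAA, which all read the same on both strands. ZNF143 was represented by CTACAATTC. The remaining strings were the TCTCGCGAG element and AGGTCAAAG, the start of a direct repeat bound by PPARA and HNF4A. Matches may overlap.
Arrdc3 (chr13:80885845-80886144, plus strand): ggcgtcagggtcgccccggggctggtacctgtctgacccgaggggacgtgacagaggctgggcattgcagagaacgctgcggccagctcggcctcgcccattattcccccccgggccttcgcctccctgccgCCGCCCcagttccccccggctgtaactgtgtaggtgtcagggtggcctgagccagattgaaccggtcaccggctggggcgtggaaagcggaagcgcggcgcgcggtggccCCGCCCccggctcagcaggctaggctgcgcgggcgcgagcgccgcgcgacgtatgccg
N6amt1 (chr16:87353935-87354234, plus strand): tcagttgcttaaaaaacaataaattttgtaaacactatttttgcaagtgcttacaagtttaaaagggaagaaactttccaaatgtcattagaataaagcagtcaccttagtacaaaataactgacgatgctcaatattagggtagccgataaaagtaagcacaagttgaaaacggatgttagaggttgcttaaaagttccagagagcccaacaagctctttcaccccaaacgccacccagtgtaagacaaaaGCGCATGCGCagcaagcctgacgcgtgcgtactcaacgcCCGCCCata
Ube2d3 (chr3:135438876-135439175, plus strand): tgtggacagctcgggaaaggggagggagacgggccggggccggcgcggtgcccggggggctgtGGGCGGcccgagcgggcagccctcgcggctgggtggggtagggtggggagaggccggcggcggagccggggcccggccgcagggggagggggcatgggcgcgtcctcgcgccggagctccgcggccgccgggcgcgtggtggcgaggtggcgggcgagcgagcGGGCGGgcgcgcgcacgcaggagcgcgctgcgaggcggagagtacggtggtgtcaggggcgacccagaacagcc
Jarid2 (chr13:44731021-44731320, plus strand): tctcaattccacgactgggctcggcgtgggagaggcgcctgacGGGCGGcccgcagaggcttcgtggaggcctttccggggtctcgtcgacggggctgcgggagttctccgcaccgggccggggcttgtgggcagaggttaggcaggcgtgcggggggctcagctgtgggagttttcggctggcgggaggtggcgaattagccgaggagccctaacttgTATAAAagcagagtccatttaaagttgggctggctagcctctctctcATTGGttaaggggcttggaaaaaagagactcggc
Msantd2 (chr9:37489071-37489370, plus strand): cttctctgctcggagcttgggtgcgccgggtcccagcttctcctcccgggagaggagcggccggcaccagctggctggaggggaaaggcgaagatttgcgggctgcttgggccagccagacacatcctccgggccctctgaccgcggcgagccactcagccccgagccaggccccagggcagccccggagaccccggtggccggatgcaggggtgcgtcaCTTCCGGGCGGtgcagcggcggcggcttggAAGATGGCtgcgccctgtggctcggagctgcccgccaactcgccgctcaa
Tbx3os1 (chr5:119671459-119671758, minus strand): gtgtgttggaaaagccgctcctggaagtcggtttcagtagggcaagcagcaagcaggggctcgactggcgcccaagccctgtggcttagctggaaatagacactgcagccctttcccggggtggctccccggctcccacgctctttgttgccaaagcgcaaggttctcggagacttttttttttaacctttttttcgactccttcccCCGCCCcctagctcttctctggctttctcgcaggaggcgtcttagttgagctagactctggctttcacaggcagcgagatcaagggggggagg
Morf4l2 (chrX:136741106-136741405, minus strand): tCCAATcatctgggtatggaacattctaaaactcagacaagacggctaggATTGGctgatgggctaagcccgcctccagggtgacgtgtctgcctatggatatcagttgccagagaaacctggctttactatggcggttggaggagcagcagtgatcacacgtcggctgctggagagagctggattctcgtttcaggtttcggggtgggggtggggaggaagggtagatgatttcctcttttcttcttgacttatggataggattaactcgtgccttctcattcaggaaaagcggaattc
Ghr (chr15:3581793-3582092, minus strand): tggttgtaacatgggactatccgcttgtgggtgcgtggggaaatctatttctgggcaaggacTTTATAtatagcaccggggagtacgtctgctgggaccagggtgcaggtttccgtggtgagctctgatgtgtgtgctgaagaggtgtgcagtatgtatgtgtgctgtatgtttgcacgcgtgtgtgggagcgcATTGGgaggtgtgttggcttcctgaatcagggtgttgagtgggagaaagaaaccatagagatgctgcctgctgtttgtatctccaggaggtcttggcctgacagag
2610001J05Rik (chr6:13871469-13871768, minus strand): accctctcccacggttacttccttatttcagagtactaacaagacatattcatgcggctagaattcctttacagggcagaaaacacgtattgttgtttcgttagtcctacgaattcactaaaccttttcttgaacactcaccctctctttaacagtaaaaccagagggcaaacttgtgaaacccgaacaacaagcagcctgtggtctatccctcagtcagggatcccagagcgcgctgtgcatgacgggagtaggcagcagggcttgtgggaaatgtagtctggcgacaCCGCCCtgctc
Fign (chr2:64097989-64098288, minus strand): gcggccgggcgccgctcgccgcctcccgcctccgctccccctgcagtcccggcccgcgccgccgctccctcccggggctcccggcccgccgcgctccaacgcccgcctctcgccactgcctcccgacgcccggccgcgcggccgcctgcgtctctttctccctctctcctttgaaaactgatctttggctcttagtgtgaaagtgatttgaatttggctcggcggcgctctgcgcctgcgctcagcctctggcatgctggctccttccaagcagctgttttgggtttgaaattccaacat

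The Arrdc3 and Ube2d3 windows, with 72.7% and 81.0% G+C, each held 2 SP/KLF strings and no TATA box. In the N6amt1 window, which has only 41.0% G+C, a pair of overlapping NRF1 strings on opposite strands lay at positions 253 and 255, just downstream of the start at position 251. Jarid2 had a TATA box at position 220 together with a CCAAT box at 267, and Morf4l2 had CCAAT boxes at positions 2 and 51. The Ghr window, for the growth hormone receptor, was poorer in CpG (observed over expected ratio 0.46) than that of Fign (1.03). These matches are letters in a window and not bound sites.

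Across the set, 64.5% of the regions outside chromosome 18 (1160 of 1798) contained a listed RefSeq start, against 45.4% of the acetylated regions with H3K4me1 and 3.76% of those called in all 8 libraries without H3K9ac. The start belonged to a protein-coding gene in 1118 of the 1160. In 160 regions, 2 genes started in opposite directions, and in 149 of them the starts lay within 500 bases (median 94 bases). This divergent layout made up 13.8% of the regions with a start and 13.2% of the H3K4me1-positive regions with a start. The divergent region shared by Ptcd3 and Polr1a, the largest subunit of RNA polymerase I, had a mean fold of 32.3, and that of Nsa2 and Gfm2, whose starts are 11 bases apart, one of 26.0.

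Of the 638 regions outside chromosome 18 with no listed start, 437 lay within 1000 bases of either end of a protein-coding gene body, 140 lay deeper in a gene body and 61 outside. The RefSeq table lists 1 or a few starts per gene, so that a start of another transcript may lie in a region counted here as having none. A tRNA gene lay in 15 regions (0.805%), against 0.351% of the H3K4me1-positive regions. These included intervals of mean fold 21.2 on chromosome 1 near Rcsd1 and 27.3 on chromosome 4 in 2610301B20Rik. tRNA genes are transcribed by RNA polymerase III from internal promoters.

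Promoter windows of these regions were rich in CpG. Their median observed over expected CpG ratio was 0.81, and 80.8% lay above 0.6. It was 0.775 in windows of H3K4me1-positive regions, 0.205 in those without H3K9ac and 0.384 over all 32851 promoters of the table. SP/KLF strings occurred in 62.9% of the windows (35.7% of all promoters), ETS strings in 22.3% (8.86%), YY1 strings in 6.72% (2.75%) and NRF1 strings in 6.29% (2.71%). TATA boxes were found in 6.29% against 13.6% of all promoters, and CCAAT boxes in 38.0% against 37.4%. H3K4me1-positive windows were close in most of these shares, with SP/KLF in 64.9%, ETS in 19.1% and TATA in 7.81%. The string that begins the PPARA and HNF4A repeat occurred in 2 of the 1160 windows. No string searched was present in 130 windows (11.2%, against 27.3% of all promoters).

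The regions were shorter than those with H3K4me1. Their median width was 1050 bases (286 to 5401), against 2214 bases with H3K4me1. The width limit left out no region. The H3K27ac summit was taken as the median position over libraries and measured from the nearest listed start in the region. In the 1160 regions with a start, it lay a median of 144 bases downstream. At H3K4me1-positive starts and at all starts in intervals called in 8 libraries the median was 150.5 bases. The summit lay within 250 bases of the start in 77.6%, against 62.4% of the H3K4me1-positive starts. The wider regions with H3K4me1 leave more room between summit and start, and these shares were not adjusted for width. In the plot of summit position the highest bin of both sets is that from 100 to 200 bases.

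**Figure D1:**
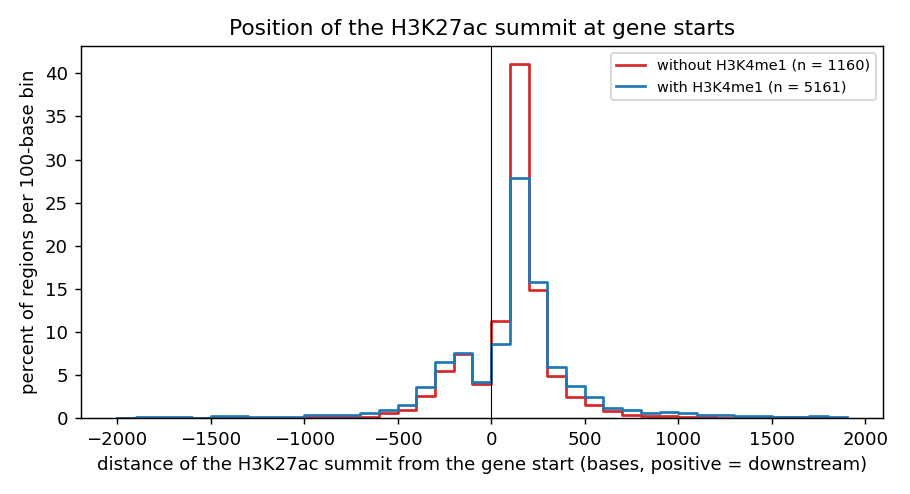
Distance of the H3K27ac summit from the listed gene start (x axis, bases) against the percent of regions per 100-base bin (y axis), for regions without (red) and with (blue) H3K4me1. The bin from 100 to 200 bases downstream held 41.1% of the regions without H3K4me1.

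H3K4me1 was nonetheless close to most of them. The nearest H3K4me1 interval lay a median of 510.5 bases away, and 1112 regions (59.7%) had one within 1000 bases, 286 of them on both sides. At the other end, 429 regions had none within 10000 bases. Among the 1000 regions with a start and a single direction of transcription, 50.6% had H3K4me1 within 1000 bases downstream and 26.1% upstream. Just inside the limit, the regions of Med7, Lrrc42 and Mrpl3 abutted an H3K4me1 interval with no base in common. Farsb, Mrpl58 and Herc2, just outside, shared 2 bases with one. With no consensus interval within 1000 bases as the rule, 752 regions remained. With an overlap required to cover 50% of the shorter interval, 2807 qualified. No peak of any single H3K4me1 library overlapped a region, so that rule gave the same 1864.

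On the X chromosome the share of regions without H3K4me1 was outside the range of the autosomes. Of its acetylated regions, 145 had no H3K4me1 and 97 had it, so 59.9% were without the mark, against 12.9% over the autosomes and 9.98% to 17.7% on single autosomes. For each H3K27ac consensus interval there were 0.966 H3K4me1 intervals on the X and 1.49 to 1.63 on the autosomes. The X held 0.574% to 0.941% of the peaks of a H3K4me1 library and 1.35% to 1.78% of those of a H3K27ac library. From an X-linked region to the nearest H3K4me1 interval the median distance was 12937 bases, against 452 bases on the autosomes.

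**Figure D2:**
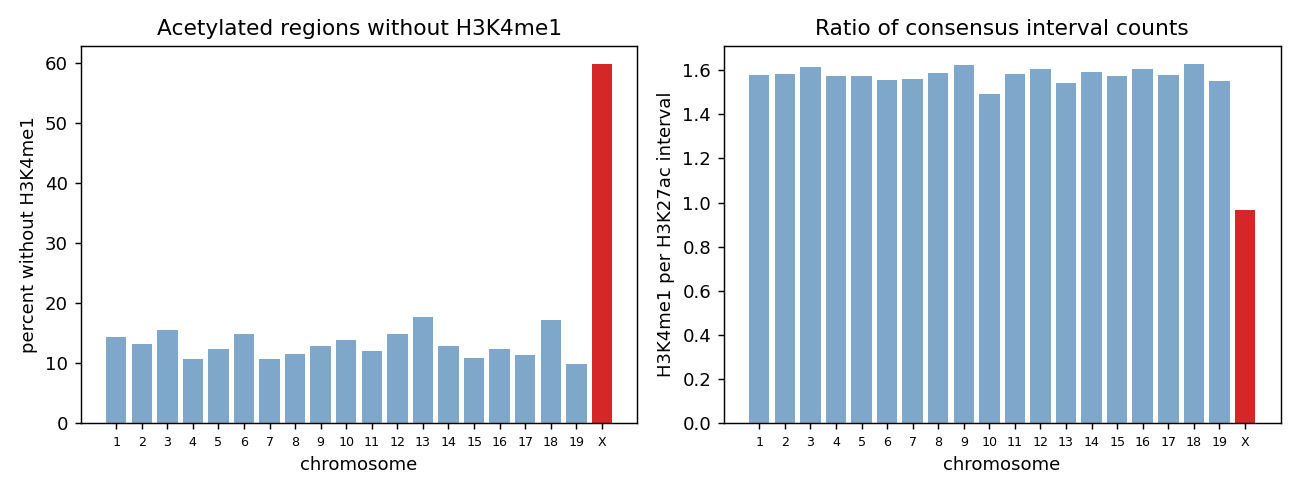
Percent of acetylated regions without H3K4me1 (left) and number of H3K4me1 per H3K27ac consensus interval (right) for each chromosome, with the X in red. The X stands at 59.9% and 0.966, outside the range of the autosomes in both.

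Male cells carry a single X, and the background of the peak caller, recovered from fold and p-value, was lower there. In the X-linked regions its median was 3.00 to 3.79 tags per library, against 5.0 to 6.0 in the autosomal regions. The median pileup on the X was 44 to 81 tags and that on the autosomes 53 to 93. The median H3K27ac fold of the X-linked regions was higher than that of the autosomal ones in all 8 libraries, for example 14.8 against 12.1 in Cpt2 L-/- replicate 1 and 9.85 against 9.20 in WT replicate 1. Neither copy number nor background was tested as a source of the missing H3K4me1. Among the X-linked regions were the starts of Morf4l2, 1696428 bases from the nearest H3K4me1 interval, Rlim (159352 bases), a ubiquitin ligase gene, and Tmem29 (526 bases).

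H3K27ac enrichment at the regions was of the same order as elsewhere. The unit is the authors' fold of pileup over local background at the highest peak of a library in the region. The median over the 1864 regions was 9.27 and 12.4 in the WT libraries, 12.3 and 11.8 in Cpt2 L-/-, 9.01 and 9.71 in Ppara -/-, and 12.1 and 13.9 in DKO. H3K4me1-positive regions had the higher median in each library (10.6 to 15.0), and those without H3K9ac the lower (7.28 to 11.1). On the log2 scale, after centring, WT replicate 1 differed from replicate 2 by a median of -0.22 in these regions, -0.09 with H3K4me1, 0.25 without H3K9ac and -0.03 over all intervals called in 8 libraries. In the other genotypes the median replicate difference in these regions lay between -0.09 and 0.02.

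**Figure D3:**
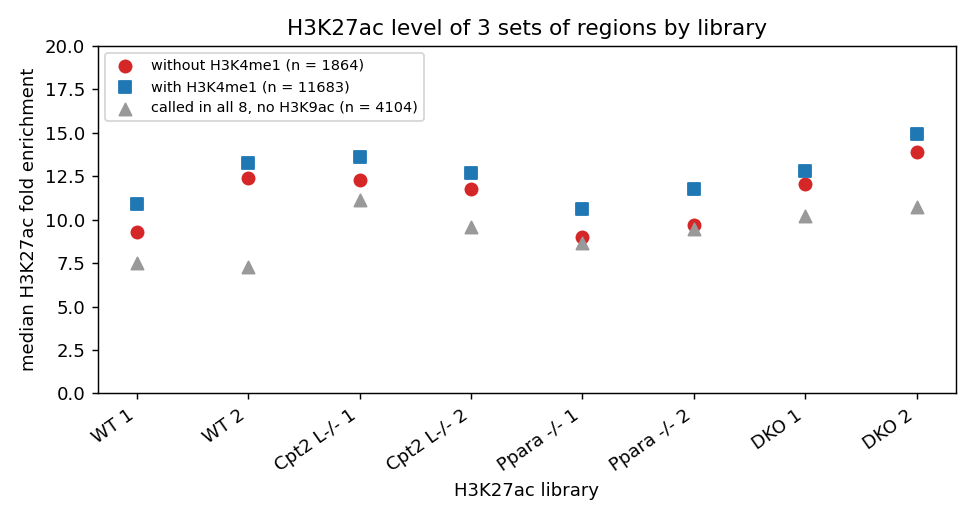
Median H3K27ac fold enrichment (y axis) in each of the 8 libraries (x axis) for the regions without H3K4me1 (red circles), with H3K4me1 (blue squares) and called in all 8 libraries without H3K9ac (grey triangles). In every library the red median lies between the other medians, from 9.01 to 13.9.

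The median pileup of a region was 52 to 92 tags per library over a median background of 5.0 to 5.69. The depth in reads is not given by the files. Arrdc3, an arrestin-domain gene, had the highest mean fold, 41.9. Its values were 28.7 and 45.8 in WT, 50.01 and 45.8 in Cpt2 L-/-, 27.6 and 33.9 in Ppara -/-, and 43.2 and 60.2 in DKO. Cpt2-null and Cpt2-intact values of Arrdc3 overlapped, with a limma adjusted p of 0.104. N6amt1, Ube2d3, Jarid2 and Msantd2 followed, with mean folds of 38.3, 37.8, 37.2 and 36.2. They encode a methyltransferase, a ubiquitin-conjugating enzyme, a Polycomb cofactor and a protein with an SANT-like domain. The lowest means were those of Ostm1 (4.07), Gpr89, Dnajc12, Akr1c13 and Aida.

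The share of genes that started in the regions differed between the lists examined. Of 6575 protein-coding genes with a start in an acetylated interval called in all 8 libraries, 1237 (18.8%) started in these regions. The share was 35.8% for mitochondrial ribosomal proteins (19 of 53), 28.6% for zinc finger genes (54 of 189), 27.8% for RNA splicing (15 of 54) and 24.6% for cytosolic ribosomal proteins (14 of 57). For the proteasome it was 13.5% (5 of 37) and for the respiratory chain 21.9% (16 of 73). It lay between 18.5% and 24.1% for translation factors, aminoacyl-tRNA synthetases, RNA polymerases with general transcription factors, histones, replication and cell cycle, the ubiquitin system, DNA repair, vesicle transport, mitochondrial import with chaperones, and small RNA hosts. None of 30 PPARA target genes with such a start, and none of 8 hepatocyte marker genes, started in a region without H3K4me1. Among markers of other liver cells, 2 of 4 endothelial genes with such a start, Kdr and Stab2, did so, and so did the single Kupffer cell gene, Clec4f. These shares are counts over lists chosen with earlier results known and were not tested. They cover listed starts only, so a gene not counted can still have a region of the set away from its listed start. Alb, 1 of the 12 hepatocyte genes, had such a region. The Eci2 region, called lower after loss of Ppara and described below, also held no listed start.

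Individual examples span the range of enrichment. Psmd12, a regulatory proteasome subunit, had a mean fold of 32.3 and Eef1a1, the elongation factor that brings aminoacyl-tRNA to the ribosome, 29.5. Cox7c, a subunit of cytochrome oxidase, had 27.2, and Hnrnpk, an RNA-binding splicing factor whose region also holds the start of Rmi1, 21.2. The region shared by the starts of Ighmbp2 and Mrpl21, the latter of the mitochondrial ribosome, had only 4.81. From the integrated stress response only Atf3 and from the circadian list only Clock started in a region without H3K4me1, of 9 and 10 listed genes with an acetylated start.

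Genotypes were compared on log2 fold after centring each library on its median over the 18281 intervals, with the 8 libraries in one limma fit and Benjamini-Hochberg adjustment over all 18281. A call is an adjusted p under 0.05. The folds printed are uncentred, and the statements on overlap below hold for the centred values too unless said otherwise. A region goes by the gene whose start it holds or, with no listed start, by the gene body it lies in or nearest to. By rule every region had a peak in all 8 libraries, so that gains or losses of whole peaks are not among the changes. In bulk liver, fewer cells of a type and less acetylation per cell cannot be told apart. No genotype comparison called 1534 of the 1864 regions (82.3%). The same share over the 18281 intervals was not computed, so this count does not show that the regions were particularly stable.

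Loss of Ppara was accompanied mainly by falls. In Ppara-null (Ppara -/- and DKO) against Ppara-intact livers (WT and Cpt2 L-/-), 65 of the 1864 regions were called (3.49%), 10 higher and 55 lower. Over all intervals the background was 7.34% called, 3.19% higher and 4.15% lower. The share in these regions was thus below the background, and it was 5.58% at H3K4me1-positive regions with a start. Falls also outnumbered rises among the latter, with 62 of 5161 higher and 226 lower. The median change was -0.06, against -0.01 over all, and it was -0.13 without WT replicate 1 and -0.02 without WT replicate 2. Without centring, 10 rose and 29 fell (2.09% called, against 6.01% over all intervals).

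The largest fall was at Tbx3os1, the antisense neighbour of Tbx3, a developmental transcription factor. Fold was 18.3 and 18.4 in WT and 14.1 and 13.8 in Cpt2 L-/-, but 8.0 and 5.55 in Ppara -/- and 5.33 and 8.59 in DKO. Every Ppara-null liver lay below every Ppara-intact one, with a log2 change of -1.28 (SE 0.20, limma adjusted p 0.0028). Reads of Tbx3os1 and Tbx3 cannot be told apart in this assay.

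The Eci2 region (mm10, chr13:35025737-35027215) held no listed start and lay within 1000 bases of an end of the gene body, 5′ or 3′ not being distinguished. It was called in both the Ppara and the Cpt2 comparison. Eci2 encodes an enoyl-CoA isomerase of fatty acid oxidation. Fold was 16.2 and 13.7 in WT, 29.1 and 28.7 in Cpt2 L-/-, 6.57 and 7.71 in Ppara -/-, and 12.7 and 10.7 in DKO. The Ppara effect was -1.22 on the log2 scale (SE 0.17, limma adjusted p 0.00152). The Cpt2 effect at Eci2 was 0.57 (limma adjusted p 0.047), and the interaction was not called (limma adjusted p 0.676).

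A region inside Adtrp, which encodes a hydrolase of fatty acid esters of hydroxy fatty acids, was enriched 12.5- and 10.3-fold in WT, 22.4 and 18.8 in Cpt2 L-/-, 5.77 and 8.35 in Ppara -/-, and 9.31 and 9.22 in DKO. Its Ppara effect was -0.96 (limma adjusted p 0.00844), whereas the Cpt2 effect did not pass (adjusted p 0.198). A fall of similar size was seen at Fign, a microtubule-severing enzyme gene (-1.15, limma adjusted p 0.00354), and Hsph1, a heat-shock protein (-1.06, limma adjusted p 0.00768). Gda, which encodes guanine deaminase, fell by 0.97 on the log2 scale. Mgst1, a glutathione transferase, fell by 0.83, but without Cpt2 L-/- replicate 1 its adjusted p was 0.0546. The calls of Zfp2 and Hectd4 were lost without single libraries too. Zfp2 had an adjusted p of 0.075 without Cpt2 L-/- replicate 2 and 0.0549 without Ppara -/- replicate 1. Hectd4 had 0.0517 to 0.16 without any of 6 libraries, all but WT replicate 1 and DKO replicate 2.

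Clock, the circadian transcription factor, fell by 0.64 (limma adjusted p 0.0271). Its folds were 22.0 and 36 in WT, 20.2 and 16.2 in Cpt2 L-/-, 10.5 and 14.0 in Ppara -/-, and 16.6 and 19.8 in DKO, so that the Ppara-null and Ppara-intact values overlapped. The fast ended at 3 pm in all animals. From the other lists, 4 of 53 zinc finger regions were called lower, among them those of Zfp148 and Zfp606, against 4.15% called lower over all intervals. In addition Polr3e, a subunit of RNA polymerase III, fell by 0.73 (limma adjusted p 0.0227).

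Among the 10 rises the uncentred Ppara-null and Ppara-intact folds overlapped in every case. On the centred scale of the fit they did not overlap at Slc25a12 and at the interval near Uspl1, and overlapped at the other 8. A region with a start of Morf4l2, a chromatin protein gene on the X, had 5.33 and 6.35 in WT but 20.2 and 15.8 in Cpt2 L-/-, 14.3 and 16.0 in Ppara -/-, and 21.1 and 22.5 in DKO. It was low only in the WT livers. A neighbouring region that also holds a listed start of Morf4l2, and that of BC065397, did not pass (0.34, limma adjusted p 0.169). The Ppara effect at the region that was low in WT was 0.80 (SE 0.15, limma adjusted p 0.00844), with 0.0533 when Cpt2 L-/- replicate 2 was left out. Each of the other 9 rises also lost its call without at least 1 library. They were the regions of Ccnt2, Fam111a, Slc25a12, Rrp15, Laptm5, Klf6 and 2610001J05Rik, and intervals 13803 bases from Uspl1 and 5927 bases from Supt4a. With the recovered pileup in place of fold, Slc25a12 changed sign, to -0.04. The number of calls was 101 without WT replicate 1 and fell to 34, 29, 16, 26, 39, 28 and 30 without WT 2, Cpt2 L-/- 1 and 2, Ppara -/- 1 and 2, and DKO 1 and 2.

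**Figure D4:**
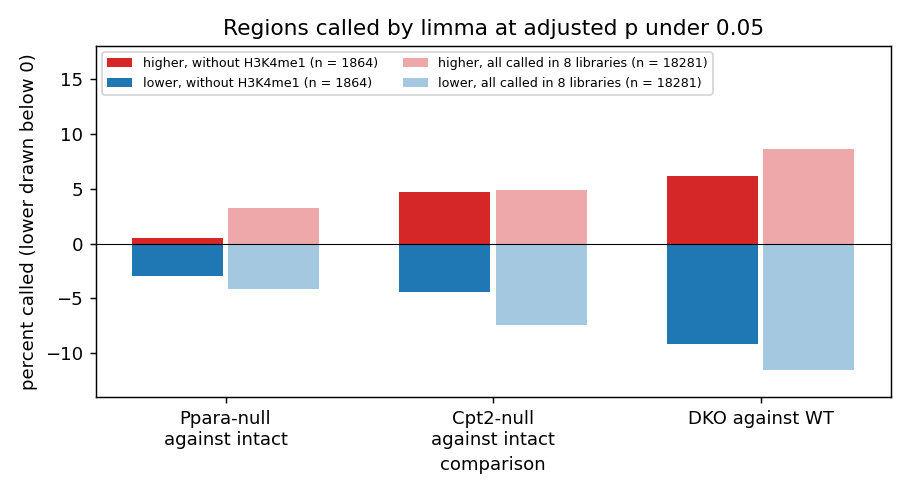
Percent of regions called higher (red, above 0) and lower (blue, drawn below 0) by limma in each genotype comparison, for the 1864 regions without H3K4me1 (dark) and all 18281 intervals called in 8 libraries (pale). On the centred values drawn here, the dark bars together are shorter than the pale ones in all 3 comparisons (3.49% against 7.34%, 9.07% against 12.3% and 15.3% against 20.2%).

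In Cpt2-null (Cpt2 L-/- and DKO) against Cpt2-intact livers (WT and Ppara -/-), 169 regions were called (9.07%), 87 higher and 82 lower. Over all intervals 12.3% were called, 4.9% higher and 7.38% lower, and 9.69% were called at H3K4me1-positive regions with a start. The median change was 0.06, against -0.01 over all, and it was -0.0027 without WT replicate 1 and 0.12 without WT replicate 2. The split into higher and lower changed with the scaling. The uncentred fold of all intervals was higher by a median of 0.25 on the log2 scale in Cpt2-null livers. Without centring 413 regions rose and 19 fell. The share called was then 23.18%, against 21.53% over all intervals, so these regions were no longer below the background. Quantile normalization gave 107 and 65 (9.23% called, against 11.66% over all). The recovered pileup gave 199 and 106 (16.36%, against 20.72%).

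The calls were also counted by distance to H3K4me1. Of the 1112 with H3K4me1 within 1000 bases, 30 were called higher and 66 lower, and of the other 752, 57 higher and 16 lower. On the X, 14 of 145 were higher and 4 lower. The shares called were 8.63%, 9.71% and 12.4%, against 12.3% over all intervals (4.9% higher and 7.38% lower). These divisions were not tested.

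The largest fall was at 1 of the 2 listed starts of Ghr, the growth hormone receptor (mm10, chr15:3581362-3582703). Fold was 22.4 and 24.6 in WT, 11.9 and 13.4 in Cpt2 L-/-, 10.6 and 14.6 in Ppara -/-, and 6.80 and 6.00 in DKO. Each deletion alone came with a lower level, and the double knockout was lowest. The Cpt2 effect was -1.19 (SE 0.17, limma adjusted p 0.00425), the Ppara effect -0.98 (limma adjusted p 0.00561), and DKO against WT -2.17 (SE 0.25, limma adjusted p 0.000808). The interaction at Ghr was -0.15 on the log2 scale (limma adjusted p 0.863). The neighbouring region with the other listed start of Ghr (chr15:3582809-3583731) did not pass for Cpt2 (-0.43, limma adjusted p 0.0733) and was lower in DKO than in WT (-0.84, limma adjusted p 0.0156).

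Wdtc1, a WD-repeat protein gene linked to fat storage, fell with 22.8 and 34.4 in WT, 10.1 and 11.9 in Cpt2 L-/-, 13.5 and 16.2 in Ppara -/-, and 9.11 and 13.1 in DKO (log2 change -1.16, limma adjusted p 0.00425). No Cpt2-null liver overlapped a Cpt2-intact one at Wdtc1. Zfp148, a zinc finger transcription factor, was high only in WT, with 24.5 and 35.3 there and 8.79 to 12.8 in the other 6 libraries. Pde3b, the phosphodiesterase through which insulin lowers cyclic AMP, showed the same layout, with 28.2 and 41.0 in WT and 10.4 to 17.5 elsewhere (Cpt2 effect -1.12, limma adjusted p 0.00568). Grb14, an adaptor that binds the insulin receptor, fell by 0.93 (limma adjusted p 0.00493). The chromatin and transcription regulators Kat6a, Meis1 and Med13 fell by 0.95 to 1.06, and with the recovered pileup Meis1 lost its call (adjusted p 0.161). The list counts that follow are small and were not tested, and the background was 4.9% called higher and 7.38% lower. Of 53 zinc finger regions 2 were higher and 2 lower. Of 20 regions of the ubiquitin system 2 were lower, among them the start of Fbxo11 (-1.06, limma adjusted p 0.0219). Its call was lost without any of 4 libraries, namely WT 2, Cpt2 L-/- 2, Ppara -/- 2 and DKO 2 (adjusted p 0.0544 to 0.0732). A separate region 437 bases from Fbxo11 went the other way in DKO against WT (0.99, limma adjusted p 0.0148), where the start region fell (-1.56, limma adjusted p 0.012).

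The start of the transcript 2610001J05Rik on chromosome 6 rose most. Fold was 5.38 and 6.00 in WT, 22.7 and 23.8 in Cpt2 L-/-, 11.6 and 12 in Ppara -/-, and 25.1 and 26.9 in DKO. All Cpt2-null livers lay above all Cpt2-intact ones, and the log2 change was 1.32 (SE 0.15, limma adjusted p 0.00187). This region also holds the start of 1110019D14Rik, which cannot be told apart from it. Tmem29, on the X, went from 4.57 and 4.43 in WT and 7.80 and 5.86 in Ppara -/- to 14.5 and 14.4 in Cpt2 L-/- and 11.9 and 12.8 in DKO (1.01, limma adjusted p 0.00856).

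Timeless and Sfr1, genes of DNA replication and recombination repair, rose by 1.09 and 1.06. Their limma adjusted p values were 0.0151 and 0.00859, and with the recovered pileup Sfr1 lost its call (0.339). Ap1g2, for an adaptin of vesicle coats, rose by 0.91 (limma adjusted p 0.0143). At Ifit2, an interferon-induced gene, fold was 6.11 and 4.50 in WT, 12.5 and 11.2 in Cpt2 L-/-, 3.43 and 8.03 in Ppara -/-, and 13.6 and 15.2 in DKO. Its log2 change was 1.05, with a limma adjusted p of 0.0182 that became 0.0558 to 0.0604 without WT 2, Cpt2 L-/- 1 or Ppara -/- 1. Among the listed genes called higher were Rpl4 of the cytosolic ribosome (0.67) and the X-linked Ndufb11 of respiratory complex I (0.53). Another was the Y-linked translation factor Eif2s3y (0.70). Each was the only call among 14, 16 and 9 regions of its list. Also called higher were 1 of 18 mitochondrial ribosomal regions, 2 of 13 of RNA polymerase and general transcription, and 2 of 53 zinc finger regions. The background was 4.9% called higher.

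**Figure D5:**
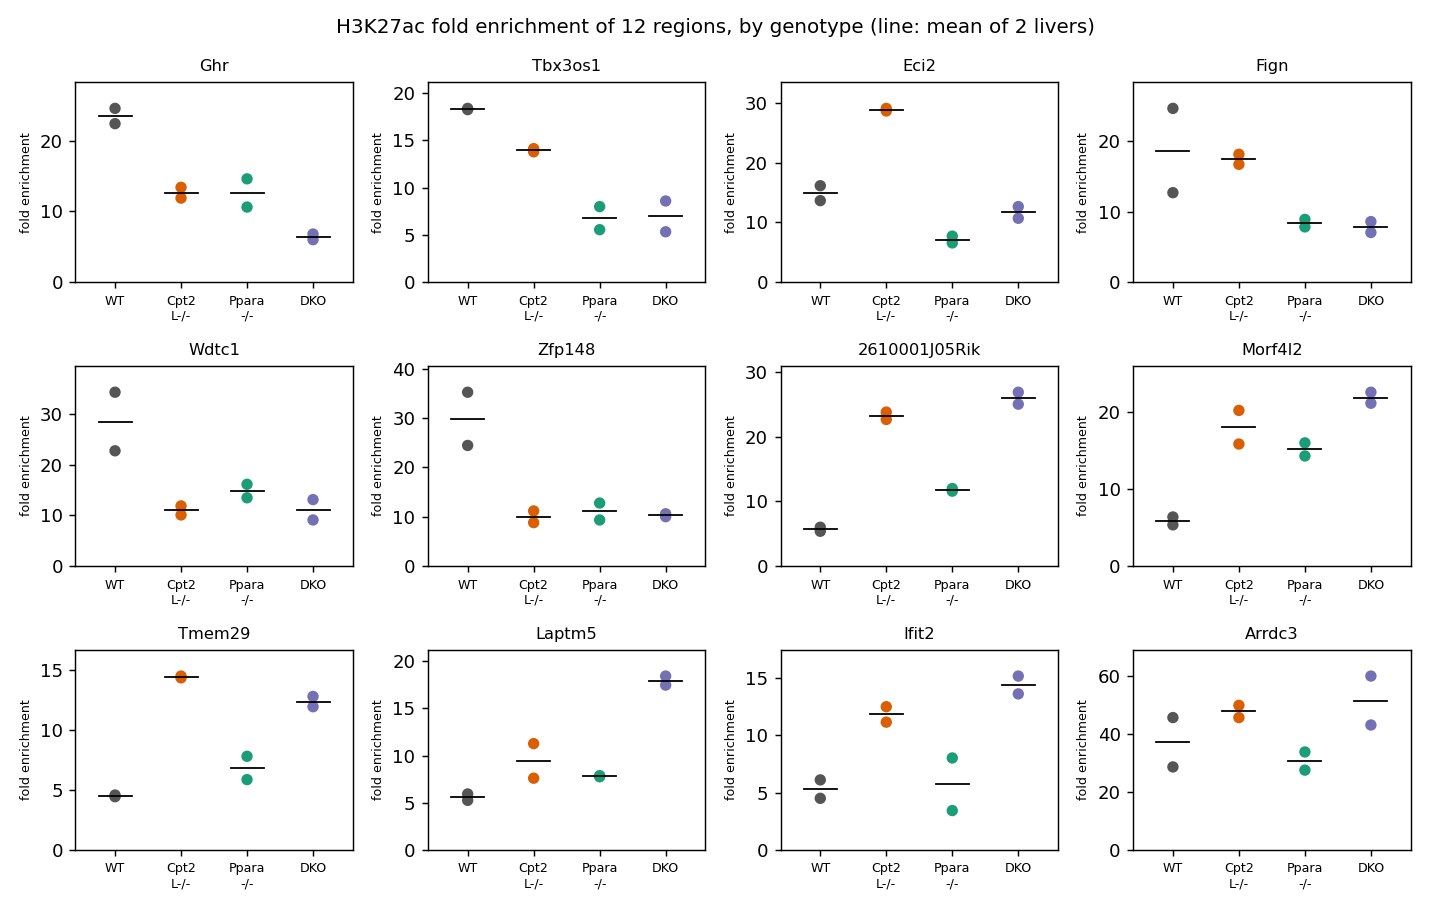
H3K27ac fold enrichment (y axis, linear from 0, a scale per panel) of 12 regions named by their gene, with 1 point per liver and a line at the mean of each genotype. Ghr falls from 22.4 and 24.6 in WT to 6.80 and 6.00 in DKO, and 2610001J05Rik rises from 5.38 and 6.00 to 25.1 and 26.9.

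By rule every region overlapped the H3K9ac consensus, so high coverage in the H3K9ac libraries follows from the choice of regions. H3K9ac, measured in 1 WT and 1 Cpt2 L-/- liver, covered 1768 of the 1864 regions in WT (94.9%) and 1849 in Cpt2 L-/- (99.2%). It covered 15 only in WT and 96 only in Cpt2 L-/-, whereas among H3K4me1-positive regions 1019 were covered only in WT and 762 only in Cpt2 L-/-. Of the 87 regions with higher H3K27ac in Cpt2-null livers, 13 had H3K9ac in the Cpt2 L-/- library alone, Ifit2 among them, and none in the WT library alone. With 1 library per genotype there is no replicate check on H3K9ac.

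Several measures moved with Cpt2. The smallest peak of a library, which follows the fragment length used by the caller, was 217 to 223 bases in Cpt2-null and 198 to 210 in Cpt2-intact libraries. These ranges do not overlap, so peak width and Cpt2 state cannot be told apart. With the width as a covariate no region and no interval of the 18281 was called for Cpt2 or for DKO against WT, and 29 were called for Ppara. Markers of other liver cells also moved. For 7 Kupffer cell and macrophage genes the summed fold of each gene's highest peak was 13.1 to 14.9 in WT, 17.0 to 22.9 in Ppara -/-, 32.6 to 34.5 in Cpt2 L-/- and 50.1 to 55.5 in DKO.

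Of these Kupffer markers 2 had a peak in each WT library, 2 to 3 in Ppara -/-, 4 in Cpt2 L-/- and 5 to 6 in DKO, and Marco had none in any library. Over 7 endothelial genes, all with a peak in every library, the sum was 77.7 to 107 in Cpt2-intact and 128 to 147 in Cpt2-null livers. It was 14.2 to 25.1 against 33.0 to 48.7 over 8 stellate cell genes. The 12 hepatocyte genes, all with a peak in every library, summed to 237 to 305. At most 1 of 6 cholangiocyte genes, 2 of 7 lymphocyte genes and 1 of 4 erythroid genes had a peak in any library. The cholangiocyte sum, from Sox9 alone, was 12.45 and 19.65 in WT and 0 in Cpt2 L-/-. It was 5.81 and 7.25 in Ppara -/- and 6.69 and 9.57 in DKO. The lymphocyte sum was 10.2 to 16.5 in Cpt2-intact and 19.5 to 24.3 in Cpt2-null livers. For the erythroid genes these ranges were 6.39 to 13.1 and 7.71 to 9.76. The part of these cell types in the changes was not tested. Leaving out 1 library took the number of Cpt2 calls to 226 without WT replicate 1 and to 96, 49, 78, 74, 75, 82 and 69 without WT 2, Cpt2 L-/- 1 and 2, Ppara -/- 1 and 2, and DKO 1 and 2.

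DKO against WT, which shares its libraries with both comparisons above, called 286 regions (15.3%), 115 higher and 171 lower. Over all intervals 20.2% were called, 8.62% higher and 11.5% lower. Without centring 276 were higher and 52 lower, with quantile normalization 120 and 123, and with the recovered pileup 214 and 195. The shares called were then 17.6%, 13.04% and 21.94%, against 21.96%, 17.85% and 28.69% over all intervals. Of the 145 X-linked regions 21 were higher and 13 lower. The number fell to 104 without WT replicate 2 and to 117 and 99 without DKO 1 and 2.

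Among the 115 regions called higher were those of Laptm5, Tlr4 and Clec4f. Markers of other cells did not all rise. The 2 start regions of the endothelial genes Kdr and Stab2 were not called (median change 0.197). A further region in Kdr had -0.45 (limma adjusted p 0.374). At Laptm5, for a lysosomal membrane protein of leukocytes, fold was 5.25 and 5.92 in WT, 7.60 and 11.3 in Cpt2 L-/-, 7.75 and 7.87 in Ppara -/-, and 17.5 and 18.4 in DKO. The change was 1.39 (SE 0.28, limma adjusted p 0.00563). Tlr4, the receptor for bacterial lipopolysaccharide, had 7.53 and 6.51 in WT and 22.8 and 19.9 in DKO (1.31, limma adjusted p 0.00537). Clec4f, a Kupffer cell lectin, had 6.25 and 5.50 in WT and 16.2 and 12.2 in DKO (0.97, limma adjusted p 0.0331). At all 3 regions the DKO livers lay above the WT livers without overlap, which largely follows from their choice among regions called higher. The summed Kupffer cell markers were also higher in DKO, but Clec4f is itself one of those 7 markers. A link between these regions and the marker sum was not tested. H3K9ac at Laptm5, Tlr4 and Clec4f was called in the Cpt2 L-/- library and not in the WT library. This held for 20 of the 115 regions called higher.

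Fam111a, which encodes a serine protease, rose from 4.17 and 8.0 to 20.3 and 23.7 (1.63, limma adjusted p 0.00296), and Ap1g2 from 3.56 and 3.56 to 15.8 and 11.1 (1.60, limma adjusted p 0.0032). An interval 8376 bases from Abt1 that holds a tRNA gene rose by 1.26 (limma adjusted p 0.00733), with 0.0509 when WT replicate 2 was left out. An interval 46117 bases from Ubash3b and the regions of Gripap1 and Ccnt2 were also among the 10 largest rises. Their calls were lost when single libraries were left out. The adjusted p was then 0.0764 and 0.0509 for Ubash3b (without WT 2 and DKO 2), 0.0686 to 0.123 for Gripap1 (without WT 2, DKO 1 or DKO 2) and 0.0522 for Ccnt2 (without DKO 1).

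Outside chromosome 18, the falls that followed Ghr included those at Zfp148 (-1.81), Tbx3os1 (-1.73), Pde3b (-1.68), Wdtc1 (-1.65) and Meis1 (-1.58), with limma adjusted p between 0.00127 and 0.00246. Reps2, on the X, had 15.6 and 20.2 in WT and 4.33 and 11.8 in DKO (-1.61). Its adjusted p was 0.0561 without WT 2, 0.0647 without DKO 1 and 0.114 with the recovered pileup. A region inside Rbm47, for an RNA-binding protein, fell by 1.63 with a limma adjusted p of 0.0147 that became 0.0539 to 0.129 without WT 1, WT 2 or DKO 2. Against a background of 8.62% called higher and 11.5% lower, 3 of the 53 zinc finger regions were higher and 5 lower. These small counts were not tested, nor were the 3 of 20 ubiquitin system regions that were lower. Among the latter, Ube2r2, a ubiquitin-conjugating enzyme, was high only in WT. Its folds were 34.7 and 44.0 there and 11.6 to 24.7 in the other libraries (-1.40, limma adjusted p 0.00294).

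No region had an interaction between the deletions at an adjusted p under 0.05 in limma. At an unadjusted p under 0.05 there were 259 of 1864. Over all intervals 1 was called (0.00547%) and 2771 had an unadjusted p under 0.05. Without centring 1 region was called. The median interaction was 0.22 on the log2 scale in these regions and 0.03 over all intervals, and 0.22 at H3K4me1-positive regions with a start. In these regions it was 0.35 without WT replicate 1 and 0.10 without WT replicate 2. Neither the Cpt2 nor the Ppara gene lay within 1000 bases of a region, so the regions hold no check of the deletions.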

How the data were processed

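For each of 8 H3K27ac and 8 H3K4me1 libraries the authors deposited a narrowPeak list with a position, a fold ratio over local background, and −log10 p and −log10 q per peak; replicates were not pooled. Consensus intervals per mark, and the intervals of 2 H3K9ac libraries, were deposited as positions only. BWA, MACS2 2.1.0 and mm10 are named in the submitters' processing notes; alignment filters, duplicate handling, scaling and the consensus rule are not given in the sources used here. The peak names of Ppara -/- replicate 2 carry another build word; 79.0% and 83.9% of the peaks of the Ppara -/- replicates overlapped each other, against 79.2% to 85.9% in the other genotypes, and its positions were used as mm10. No per-sample column was left unmapped (0).

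The fold of a region is that of its highest peak overlapping by at least 1 base. The pileup was recovered from fold and −log10 p (100.0% of values whole within 0.02 tags) and used as an alternative. The genotype test used limma 3.58.1 (R 4.3.3) with 4 genotype means and an eBayes trend; the fit was tested on simulated data. Starts and 300-base promoter windows are from RefSeq GRCm38.p6, the assembly of mm10, without chromosome 18, which is not analysed for starts and named regions here. Gene lists are by symbol or symbol prefix. Named regions are up to 10 rises and 10 falls per comparison, the 5 highest and lowest mean folds, the closest to the limits of the rule, and those of listed genes. The regions and lists were chosen with earlier results of these data known. Library depth in reads is not given by the files, so no counting interval is printed. Alternatives were no centring, quantile normalization, recovered pileup, base-weighted mean fold, smallest peak width as covariate, −log10 q of at least 10, overlap of at least 50%, a replicate block and leaving out each library.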

Additional observations from a re-analysis of the deposited data

Results flagged for a closer look

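At the Gda region the uncentred folds differed with Cpt2 in opposite directions in Ppara-intact and Ppara-null livers. The H3K27ac fold was 17.3 and 18.7 in WT and 13.0 and 15.8 in Cpt2 L-/-, but 6.59 and 7.62 in Ppara -/- and 10.5 and 9.45 in DKO. Both Cpt2 L-/- livers lay below both WT livers, and both DKO livers above both Ppara -/- livers. After division by each library's median, as in the fit, the Ppara -/- values were 0.657 and 0.688 and the DKO values 0.858 and 0.677, so these groups overlapped and the opposite directions were not seen in every library. The interaction was 0.73 on the log2 scale and did not pass the threshold (limma adjusted p 0.338).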

How the results depend on the processing

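The number of regions called for Ppara, 65, was 39 without centring, 29 with the smallest peak width as covariate and 16 to 101 when 1 library was left out. For Cpt2, 169 became 432 without centring, 305 with the recovered pileup, 0 with the width as covariate and 49 to 226 without 1 library. For DKO against WT, 286 became 0 with the width as covariate and 99 to 310 without 1 library. The interaction count of 0 became 1 without centring and stayed 0 to 0 without 1 library. With the replicate block, 70 regions were called for Ppara, 191 for Cpt2 and 308 for DKO against WT; same-numbered replicates shared only a number (correlations of their deviations from -0.06 to 0.17). The other settings kept all 4 counts within 1.5 times. The number of regions, 1864, was 752 with no H3K4me1 within 1000 bases, 2807 with an overlap of 50%, and 1871 to 1975 without 1 library.

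Of the 60 named changes, 5 reversed with the width as covariate, namely Ubash3b (-0.22 for Cpt2, -0.0551 for DKO against WT), Ifit2 (-0.23 for Cpt2) and Gripap1 (-0.59 for Cpt2, -0.55 for DKO against WT), none with an adjusted p under 0.05, and Slc25a12 reversed with the recovered pileup (-0.0361 for Ppara). The width separates the Cpt2 groups and leaves 3 residual degrees of freedom. Leaving out a library took the call from 3 to 16 of the 60.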
